A study of Mus musculus with 8 samples.

Results

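The fragments described here came from the lysine tRNAs, tRNA Lys-CTT and tRNA Lys-TTT, named by the anticodon of their genes. They were chosen as all sequences that the deposited table assigned to a name with Lys in it, which gave 95 of the 2226 sequences of tRNA-derived fragments (tRFs), or 4.27%, with 59 of Lys-CTT and 36 of Lys-TTT. The small RNA libraries, 4 per genotype, were made from β-cells of db/db mice (strain BKS.Cg-Dock7m+/+LeprdbJ) and of wild type mice (BKS.Cg-Dock7m+/+), both 8 weeks old. The db/db strain, a model of type 2 diabetes, lacks normal signalling by leptin, the hormone of fat tissue that restrains appetite, and the names of both strains include Dock7m. The β-cells were sorted by autofluorescence from dispersed islets, and the islets of several animals were pooled for a preparation, so that a library stands for a pool and the p-values measure the spread between these preparations. The table holds tRNA fragments and no messenger RNA, so no marker gene of β-cells or of another islet cell could be examined. In sorted cells in bulk, fewer cells of a type and less RNA per cell cannot be told apart.

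The codons of lysine are AAA and AAG. The tRNA with the anticodon CUU reads AAG, and the tRNA with UUU reads AAA and can also read AAG. In the tRNA with the anticodon UUU, the base next to the anticodon is modified by Cdkal1, the product of a gene associated with type 2 diabetes risk, and the wobble uridine carries a modification of its own. The CCA at the 3′ end is not encoded in the gene: an enzyme adds it to every tRNA after the 3′ trailer is removed, and the amino acid is attached to its last A. A 3′tRF holds that end and is cut out of the T arm, a 5′tRF holds the first bases of the tRNA, and an internal tRF holds neither. The RefSeq genes of build GRCm38 included 24 loci for tRNA Lys-CTT on 12 chromosomes, of which 19 lay outside annotated genes and 0 overlapped an exon. There were 2 loci for tRNA Lys-TTT, both on chromosome 13 and outside annotated genes, n-TKttt23 at chr13:21907940-21908012 and n-TKttt22 at chr13:21971788-21971860. A fragment cannot be assigned to a single locus.

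Each fragment was put into a class by its sequence. Of the lysine fragments, 31 ended in CCA and were complete 3′ ends (16 of Lys-CTT and 15 of Lys-TTT). Another 11 ended 1 to 3 bases short of CCA (4 and 7) and were kept apart as CCA-short. The 5′ class had 22 members (9 and 13), and 31 were internal (30 and 1). All were 16 to 30 nt long.

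A selection of the 3′ ends, the abundant ones and those with shortened forms, is shown first, since the difference between the genotypes lay in their last bases. The capitals mark what is left of CCA.
Lys-CTT complete, 16 nt: cccacgttgggcgCCA
Lys-CTT complete, 17 nt: ccccacgttgggcgCCA
Lys-CTT 1 base short, 16 nt: ccccacgttgggcgCC
Lys-CTT complete, 27 nt: tgggttcgagccccacgttgggcgCCA
Lys-CTT 1 base short, 26 nt: tgggttcgagccccacgttgggcgCC
Lys-CTT 2 bases short, 25 nt: tgggttcgagccccacgttgggcgC
Lys-TTT complete, 16 nt: ccctgttcgggcgCCA
Lys-TTT complete, 17 nt: tccctgttcgggcgCCA
Lys-TTT 1 base short, 16 nt: tccctgttcgggcgCC
Lys-TTT complete, 18 nt: gtccctgttcgggcgCCA
Lys-TTT 1 base short, 17 nt: gtccctgttcgggcgCC
Lys-TTT complete, 27 nt: agggttcaagtccctgttcgggcgCCA
Lys-TTT 2 bases short, 25 nt: agggttcaagtccctgttcgggcgC
Lys-TTT complete, 28 nt: cagggttcaagtccctgttcgggcgCCA
Lys-TTT 2 bases short, 26 nt: cagggttcaagtccctgttcgggcgC
Lys-TTT complete, 29 nt: ccagggttcaagtccctgttcgggcgCCA
Lys-TTT 2 bases short, 27 nt: ccagggttcaagtccctgttcgggcgC
Lys-TTT 3 bases short, 26 nt: ccagggttcaagtccctgttcgggcg

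The 16-nt ends of the tRNAs differed at 4 positions counted from 1 at the 5′ end of the fragment, A4T, C5G, G6T and T8C, with the Lys-CTT base first. Counted back from CCA through the acceptor stem, these 16-nt ends begin with the first base of the 3′ strand of the T stem, and the 17-nt ends with the last base of the T loop. The ends of 27 to 29 nt begin in the 5′ strand of the T stem or just before it. The 5′ fragments, with the base that differs in capitals, and the most abundant internal fragments, with the anticodon in capitals where it is held, were the following.
Lys-CTT 5′, 26 nt: gcccggCtagctcagtcggtagagca
Lys-TTT 5′, 26 nt: gcccggAtagctcagtcggtagagca
Lys-TTT 5′, 29 nt: gcccggAtagctcagtcggtagagcatca
Lys-CTT internal, 27 nt: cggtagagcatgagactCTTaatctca
Lys-CTT internal, 17 nt: gctcagtcggtagagca
Lys-TTT internal, 17 nt: cggtagagcatcagact

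Over their first 26 bases the tRNAs differed only by C7A. In the cloverleaf, base 7 closes the acceptor stem and pairs with the base at position 6 of the 16-nt 3′ end, where G6T is the complementary change. The changes at positions 4 and 5 of the 16-nt end lie in the T stem and were matched in the same way on its other strand. All 5 pairs of the T stem were therefore Watson-Crick pairs in both tRNAs, whereas the acceptor stem had 5 Watson-Crick and 2 G-T pairs in tRNA Lys-CTT and 6 and 1 in tRNA Lys-TTT, where T8C replaced a G-T pair. Some fragments differed from the sequence shown by a further base. Examples were Lys-CTT ends with C12T (16 nt), a Lys-TTT end with G22A (29 nt) and a Lys-CTT 5′ fragment with A29G (29 nt). Of the 30 internal fragments named Lys-CTT, 4 lay wholly in bases that a Lys-TTT fragment also held, gctcagtcggtagagca among them, so their name is uncertain.

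The libraries held between 582165 and 2946290 tRF counts of unique molecules. Lysine fragments took 3.98% to 5.56% of them, with a mean of 4.92% ± 0.541 in wild type and of 4.99% ± 0.737 in db/db (here and below, SD over 4 libraries per genotype), so that 23193 to 163302 lysine counts stood behind a library. Any pair of libraries of a genotype differed by more than counting error (the lowest of the 12 pairs had a chi-square of 12.3 per degree of freedom). The ratio of Lys-CTT to Lys-TTT counts ran from 0.886 in wild type 4 to 2.41 in a db/db library, with means of 1.62 ± 0.606 in wild type and of 2.08 ± 0.259 in db/db. Wild type 4 was the only library with more Lys-TTT than Lys-CTT counts.

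The first question was whether the fragments of a lysine tRNA, summed, differed between db/db and wild type β-cells. Levels are given as CPM, normalised counts scaled to a tRF total of 1e6 counts, with the scaling worked out separately for sequences, for classes and for sums over a tRNA. All fragments of tRNA Lys-CTT summed to 29840 ± 3301 CPM in wild type and 32813 ± 3975 in db/db. On the log2 scale db/db over wild type came to 0.14 ± 0.18 (SE; 95% interval −0.21 to 0.49; edgeR quasi-likelihood test with Benjamini-Hochberg adjustment, adjusted p = 0.726). All fragments of tRNA Lys-TTT summed to 20297 ± 6699 CPM in wild type and 15947 ± 2710 in db/db, a log2 fold change of −0.35 ± 0.22 (95% interval −0.79 to 0.09, edgeR adjusted p = 0.396). Neither total passed the test, and of the 48 isoacceptor totals tested 4.17% were called. The CPM of the genotypes overlapped for both totals, while 6.25% of the 48 had no overlap. A call needed an adjusted p below 0.1 and a fold change above 2.

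The second question was which fragments differed. Of the 95 lysine sequences 71 had enough counts for a test, and 9 were called, all of them lower in db/db β-cells, where 9.44% of all 1832 tested sequences were called lower and 5.57% higher (15% in both directions). All 9 were CCA-short, and they were all the CCA-short lysine sequences that could be tested, 3 of Lys-CTT and 6 of Lys-TTT. The table holds only sequences with at least 5 counts in at least 4 libraries. All 11 CCA-short lysine sequences met that limit in the 4 wild type libraries, and 4 of them met it in the 4 db/db libraries as well, all 4 of which were called. The other 7 did not meet it without the genotype where they were high, so the count of calls and the median of the class describe the members and are no support for the decrease. The 4 held 85.6% of the CCA-short lysine counts. Among other lysine fragments edgeR called 0 of 29 complete 3′ ends, 0 of 21 in the 5′ class and 0 of 12 internal ones. DESeq2 gave the same total of 9. Calls in these classes were few over all isoacceptors as well. Of 894 tested complete 3′ ends, 68 were called higher and 4 lower. In the 5′ class 9 of 268 were called higher and 10 lower, and of 502 internal fragments 25 and 15. With so few lysine members, 0 calls do not set them apart from their classes. At an unadjusted p below 0.05 there were 14 of 71, where 21.3% of all tested sequences were, namely the 9 called, and from Lys-TTT 3 complete 3′ ends and 2 of the 5′ class. The CPM of the genotypes did not overlap for 12 of the 95 sequences, namely the 11 CCA-short ones and a complete end of Lys-CTT of 21 nt. Among the tested lysine sequences that was 10 of 71, where 17.1% of all tested sequences did not overlap.

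**Figure D1:**
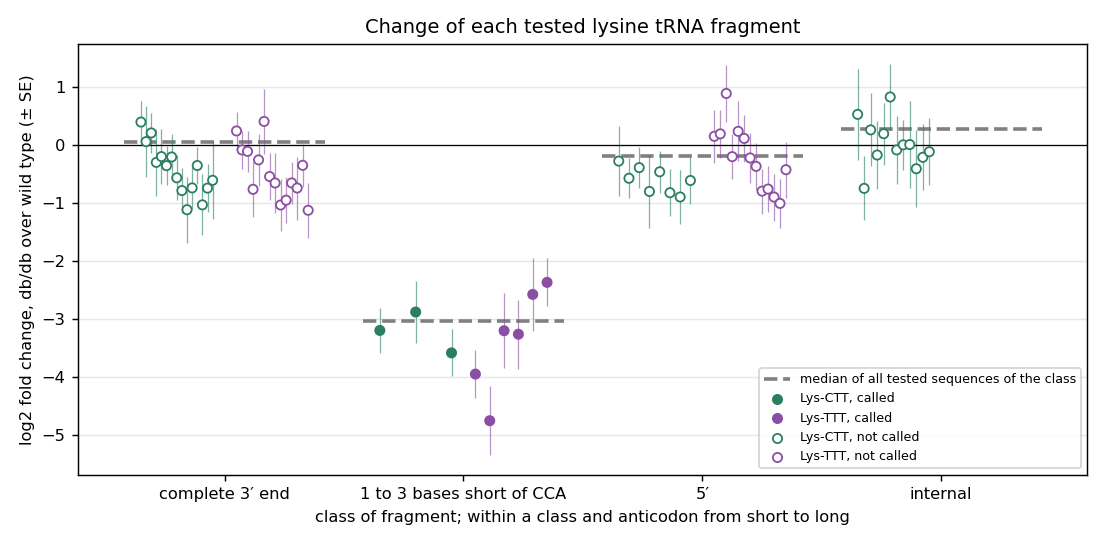
Log2 fold change of db/db over wild type (points, with SE as bars) for the 71 lysine sequences with enough counts, by class and anticodon and from short to long within each; filled points passed the test, and the dashed line is the median of all tested sequences of the class in the table. The 9 filled points all lie in the CCA-short class, between −2.37 and −4.76, and every other point lies between −1.13 and 0.89.

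The CCA-short fragments carried the difference. The median log2 fold change of the 9 tested was −3.21, and that of all 168 tested CCA-short sequences of the table was −3.04. Of those 168, 144 were called lower, and without the lysine sequences 135 of 159 (84.9%). Calls in this class were therefore not particular to the lysine fragments. How many of the 159 met the limit of the table in the db/db libraries was not examined. These counts and medians are a description as well and no support for a decrease. The sequence ccccacgttgggcgCC of tRNA Lys-CTT was at 1920, 1417, 1221 and 679.6 CPM in the wild type libraries and at 112, 140.8, 178.8 and 135.9 CPM in the db/db libraries. Every wild type library was above every db/db library, with a log2 fold change of −3.20 ± 0.38 (SE; adjusted p = 4.05e-06 in edgeR's test). Its longer relative tgggttcgagccccacgttgggcgCC, which begins in the T stem, was at 332.7, 346.5, 216.7 and 319 CPM in wild type and at 35.7, 10.8, 29.9 and 21.3 CPM in db/db. That is a log2 fold change of −3.59 ± 0.41 (edgeR adjusted p = 2.51e-06). The form another base shorter, tgggttcgagccccacgttgggcgC, was at 51.1 ± 14 CPM in wild type and 6.97 ± 2.94 in db/db (log2 fold change −2.88 ± 0.53, edgeR adjusted p = 0.000298). The fourth, gggttcgagccccacgttgggcgCC, had too few counts for the test, and its 115 counts in wild type stood beside 12 in db/db. Like the form named before it, it met the limit of the table only with the wild type libraries.

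In tRNA Lys-TTT, tccctgttcgggcgCC was at 366.5, 529.2, 238.5 and 293.5 CPM in wild type and at 12.6, 27.1, 29.5 and 22.2 CPM in db/db, a log2 fold change of −3.95 ± 0.41 (edgeR adjusted p = 1.77e-06). The lowest wild type library was above the highest db/db library here as well. The most negative log2 fold change was that of the form that starts a base earlier, gtccctgttcgggcgCC. This form is among the 7 that met the limit of the table only with the wild type libraries. It was at 80.07, 142.1, 47.0 and 51.0 CPM in wild type and at 2.90, 1.80, 4.57 and 0.888 in db/db, where its 16 counts in all limit the precision (log2 fold change −4.76 ± 0.60, edgeR adjusted p = 6.21e-06). The remaining Lys-TTT fragments start in the T arm or just before it and end 2 or 3 bases short. Among them only ccagggttcaagtccctgttcgggcgC met the limit of the table in the db/db libraries as well. It was at 94.3, 197.6, 87.3 and 101.2 CPM in wild type and at 25.1, 25.3, 24.5 and 17.8 CPM in db/db (log2 fold change −2.37 ± 0.41, edgeR adjusted p = 0.000190). The fragment cagggttcaagtccctgttcgggcgC fell from 56.8 ± 40.1 to 5.32 ± 3.28 CPM (log2 fold change −3.27 ± 0.60, edgeR adjusted p = 0.000298). The fragment ccagggttcaagtccctgttcgggcg, which lacks all of CCA, fell from 40.03 ± 26 to 6.18 ± 4.26 CPM (log2 fold change −2.58 ± 0.63, edgeR adjusted p = 0.00469). The longest, ggtccagggttcaagtccctgttcgggcgC of 30 nt, had too few counts for the test, at 25.4 ± 18.3 and 4.48 ± 3.70 CPM.

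Counts summed over a class were lower in db/db as well. The sums include the 7 members that met the limit of the table only with the wild type libraries. They describe the classes and are no separate support for the decrease. The CCA-short fragments of tRNA Lys-CTT were at 1789, 1804, 1351 and 1156 CPM in wild type and at 173, 174, 248 and 178 CPM in db/db. The means were 1525 ± 324 and 193 ± 36.9 CPM, a log2 fold change of −2.98 ± 0.28, or 7.89-fold lower in db/db (edgeR adjusted p = 1.40e-05). Those of tRNA Lys-TTT were at 493, 1133, 404 and 634 CPM in wild type and at 81.4, 64.9, 93.3 and 60.8 CPM in db/db. The means were 666 ± 325 and 75.09 ± 15.05 CPM, a log2 fold change of −3.14 ± 0.36, or 8.87-fold lower (edgeR adjusted p = 2.92e-05). Of the 130 classes of fragments tested over all isoacceptors, 17.7% were called lower and 3.08% higher. Of the 24 CCA-short classes 22 (91.7%) were lower, their median being −2.75 on the log2 scale, and the lysine tRNAs stood at rank 9 (Lys-TTT) and 10 (Lys-CTT) by size of decrease.

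**Figure D2:**
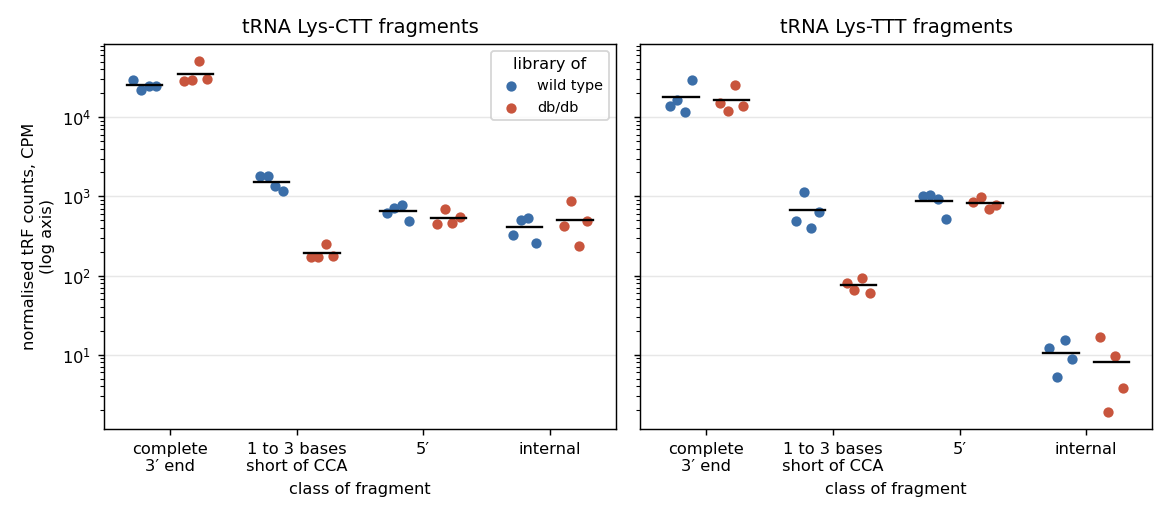
CPM (normalised tRF counts, log axis) of each class of lysine tRNA fragment, with a point for each library and a line at the mean of 4 libraries; Lys-CTT is on the left and Lys-TTT on the right. The genotypes separate only in the CCA-short class, with wild type libraries at 1156 to 1804 and 404 to 1133 CPM and db/db libraries at 173 to 248 and 60.8 to 93.3 CPM.

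The complete 3′ ends made up most of the counts, 90.7% ± 2.09 of those of Lys-CTT in wild type and 96.3% ± 1.54 in db/db, and 91.0% ± 3.48 and 94.3% ± 2.06 of those of Lys-TTT. Their level did not pass the test. Those of tRNA Lys-CTT were at 29328, 22191, 24921 and 25001 CPM in wild type and at 28370, 29533, 50354 and 29970 CPM in db/db. Db/db 3 stood far above the rest, and the log2 fold change was 0.45 ± 0.25 (95% interval −0.05 to 0.94, edgeR adjusted p = 0.265). It was 0.21 without db/db 3. Those of tRNA Lys-TTT were at 13643, 16555, 11690 and 29196 CPM in wild type and at 15211, 11929, 25647 and 13698 CPM in db/db. Here wild type 4 and db/db 3 were high, and the log2 fold change was −0.10 ± 0.34 (95% interval −0.77 to 0.57, edgeR adjusted p = 0.841). The direction of this last value turned without wild type 4 (0.18) and without db/db 2 (0.051). Of the 15 tested complete ends of Lys-CTT, the 11 of 20 to 30 nt all had a negative log2 fold change, from −1.12 to −0.20, while the 4 of 16 to 19 nt lay between −0.30 and 0.39. In Lys-TTT 9 of 10 were negative at 20 to 30 nt and 3 of 4 at 16 to 19 nt, although none passed the test. The median of all tested complete ends of the table, whatever their length, was 0.05, and that of the 29 lysine ends −0.55. The ends of a tRNA overlap and share libraries and scaling, so their signs are not separate observations.

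Since a ratio within a library does not depend on the scaling between libraries, the CCA-short counts were also taken as a share of all 3′ end counts of the same tRNA. They made up 5.75%, 7.52%, 5.14% and 4.42% of the Lys-CTT 3′ ends in the wild type libraries and 0.607%, 0.584%, 0.491% and 0.589% in the db/db libraries. The means were 5.71% ± 1.33 and 0.568% ± 0.0521, 10.1 times lower in db/db. In Lys-TTT the shares were 3.49%, 6.40%, 3.34% and 2.13% in wild type and 0.532%, 0.541%, 0.362% and 0.442% in db/db, with means of 3.84% ± 1.82 and 0.469% ± 0.0841, 8.18 times lower. The genotypes did not overlap in either tRNA, as in 56.1% of the 41 isoacceptors with enough 3′ end counts (15 of the 41 had no CCA-short fragment among the sequences analysed here). The two-sided exact permutation test gave p = 0.0286 in both, the smallest p that 4 libraries against 4 allow, and 0.0509 after Benjamini-Hochberg adjustment over the 41, above the threshold of 0.05. In the same tests 23 isoacceptors had an unadjusted p below 0.05 and 0 an adjusted one. The share uses the same counts as the tests above and is no independent measurement. It also includes the 7 members that met the limit of the table only with the wild type libraries. The wild type share of Lys-CTT was at rank 10 and that of Lys-TTT at rank 14 of the 41.

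A shortened form can be set beside the complete form that begins with the same base, so that only the last bases differ. There were 10 such pairs among the lysine fragments, and in all 10 the share of the shortened form was lower in every db/db library than in every wild type library, by 4.01 to 20.5 times between the means. In 6 of the 10 the shortened form met the limit of the table in all wild type libraries but not in all db/db libraries, and in the other 4 the means differed by 4.01 to 11.7 times. Pairs of other isoacceptors were not formed, so no share over all such pairs can stand beside this count. The pairs reuse the counts tested above and some share a complete form, so they are no independent measurements. For Lys-CTT the 16-nt form was 9.48% ± 3.32 of both forms in wild type and 0.967% ± 0.0830 in db/db, beside the complete form of 17 nt. The 26-nt form was 7.19% ± 1.13 and 0.760% ± 0.280, beside the complete form of 27 nt. For Lys-TTT the 16-nt form was 19.96% ± 6.30 and 1.71% ± 0.584, and the 17-nt form was 32.1% ± 9.84 and 1.56% ± 0.871, which is the largest ratio of the 10. The smallest ratio was that of the 27-nt form, 2 bases short, with 1.59% ± 0.990 and 0.398% ± 0.160. The Lys-TTT form that lacks all of CCA made up 0.293%, 1.22%, 0.398% and 0.261% in wild type and 0.174%, 0, 0.0655% and 0.144% in db/db.

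**Figure D3:**
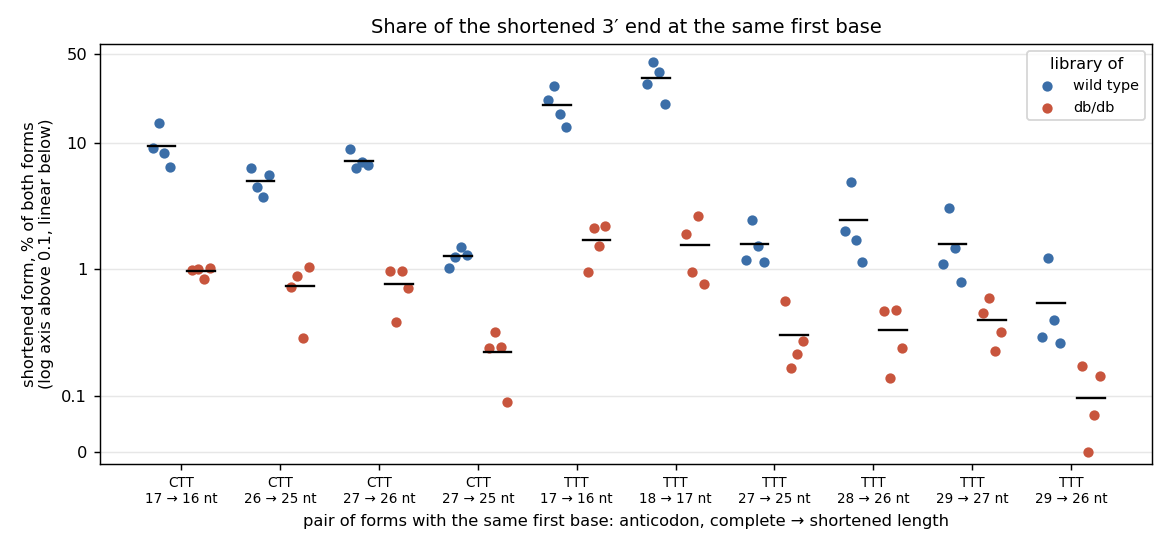
Share of the shortened 3′ end in percent of the shortened and complete forms that begin with the same base (log axis above 0.1%, linear below), for 10 pairs named by anticodon and by complete and shortened length, with a point for each library and a line at the mean of 4. In each pair the wild type libraries lie above the db/db libraries, from means of 32.1% against 1.56% in the 18-nt Lys-TTT end to 0.544% against 0.0958% in the Lys-TTT end without CCA.

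A further question was whether the tRNAs differed from each other. Over all 3′ ends, the CCA-short share of Lys-TTT was below that of Lys-CTT in 8 of 8 libraries, with a mean log2 ratio of −0.47 (exact sign-flip permutation test over the libraries, two-sided, p = 0.0078, the smallest it can give). This order depended on which ends were compared. Both of the following splits by length were chosen after seeing the data, so no test is given for them. Among ends whose complete form is 19 to 30 nt long the log2 ratio was −1.42, again below 0 in 8 of 8 libraries, with 6.37% for Lys-CTT and 1.91% for Lys-TTT in wild type. At the 17-nt end, where both tRNAs have a form 1 base short, it was 0.92 and above 0 in 7 of 8 libraries, with 9.46% for Lys-CTT and 19.96% for Lys-TTT in wild type. The long shortened ends of Lys-TTT analysed here lacked 2 or 3 bases, and those of Lys-CTT lacked 1 or 2. By genotype the log2 ratio averaged −0.66 ± 0.339 in wild type and −0.29 ± 0.163 in db/db, a difference of 0.37 that did not pass the two-sided exact permutation test (p = 0.0857). With a library left out the difference was 0.24 to 0.51. It was largest without wild type 2, which had the highest CCA-short share of both tRNAs.

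The complete 3′ ends of the tRNAs had different lengths. In Lys-CTT the 16- and 17-nt ends took 32.9% ± 4.02 and 44.8% ± 6.26 of the complete ends in wild type, followed by the 27-nt end with 15.2% ± 6.52. In Lys-TTT the 29-nt end led with 44.1% ± 4.94, followed by the 16-nt end with 18.2% ± 5.16 and by the 28- and 27-nt ends with 12.4% ± 1.97 and 12% ± 4.16. Ends of 16 to 19 nt made up 77.7% ± 10.1 of the complete Lys-CTT ends in wild type and 85.7% ± 4.46 in db/db (two-sided exact permutation test, p = 0.257, adjusted p = 0.781 over 41 isoacceptors). In Lys-TTT they made up 29.8%, 27.5%, 32.5% and 18.8% in wild type and 35.1%, 37.8%, 35.1% and 33.4% in db/db. Here the genotypes did not overlap, as in 7.32% of the 41 isoacceptors (exact permutation test, p = 0.0286, adjusted p = 0.390). The share of Lys-TTT was below that of Lys-CTT in 8 of 8 libraries, by 50.4 percentage points on average (exact sign-flip permutation test, p = 0.0078), and the size of this gap was −50.5 ± 7.83 points in wild type and −50.3 ± 4.78 in db/db.

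**Figure D4:**
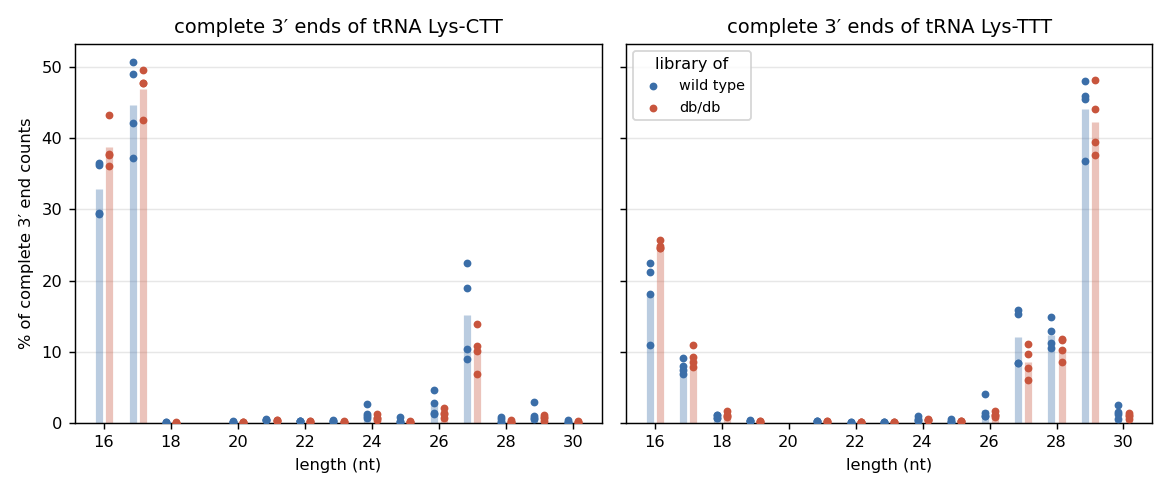
Share of each length among the complete 3′ ends of tRNA Lys-CTT (left) and tRNA Lys-TTT (right), in percent of their counts per library (points) with the mean of 4 libraries per genotype (bars). The 16- and 17-nt ends hold 32.9% and 44.8% of the wild type Lys-CTT ends, and the 29-nt end holds 44.1% of the wild type Lys-TTT ends.

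The 5′tRFs of lysine tRNAs were a small part of the fragments. Summed, those of Lys-CTT were at 615, 716, 780 and 491 CPM in wild type and at 453, 700.1, 456 and 542 CPM in db/db, a log2 fold change of −0.28 ± 0.26 (edgeR adjusted p = 0.497). Those of Lys-TTT were at 1023, 1029, 929 and 519.6 CPM in wild type and at 849, 971, 687 and 770.4 CPM in db/db, a log2 fold change of −0.09 ± 0.28 (edgeR adjusted p = 0.831). Neither passed the test, and wild type 4 was the lowest wild type library in both. Of the 8 tested 5′ sequences of Lys-CTT, the log2 fold changes ran from −0.90 to −0.28, and of the 13 of Lys-TTT from −1.01 to 0.89. In Lys-TTT they differed by length: the 6 sequences of 16 to 21 nt lay between −0.20 and 0.89, the 4 of 25 to 29 nt between −1.01 and −0.76, and those of 23, 24 and 30 nt at −0.23, −0.37 and −0.43. The 4 of 25 to 29 nt were called lower when wild type 4 was left out, and so was the Lys-CTT sequence gcccggCtagctcagtcggtagagcatga. The sequence gcccggAtagctcagtcggtagagcatca of 29 nt was at 281, 107, 119 and 69.5 CPM in wild type and at 49.3, 99.3, 81.1 and 55.95 CPM in db/db (edgeR adjusted p = 0.155). Without wild type 1, its highest library, the log2 fold change of −1.01 became −0.41 (edgeR adjusted p = 0.678), and 0 of the 13 were called.

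The lengths of the 5′tRFs were also compared as shares within the libraries. Fragments of 16 to 20 nt made up 22.6%, 25.3%, 26.8% and 25.1% of the Lys-TTT 5′ counts in wild type and 42.4%, 33.8%, 31.6% and 33.8% in db/db. Those of 25 to 30 nt made up 58.1%, 47.7%, 46.1% and 53.6% in wild type and 28.7%, 39.9%, 45.7% and 37.6% in db/db. Both bands had no overlap between the genotypes, and were chosen after the values had been seen, so no test is given. For the 16 to 20 nt band 13.6% of the 22 isoacceptors with at least 100 counts of the 5′ class in every library had no overlap, and for the 25 to 30 nt band 31.8% of the 22, or 7, all of them lower in db/db. In Lys-CTT the 5′ fragments were nearly all long, with 96.5% ± 1.0 in the band of 25 to 30 nt in wild type and 93.6% ± 4.10 in db/db, and the 16 to 20 nt band overlapped between the genotypes.

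The internal fragments were almost all from tRNA Lys-CTT. Summed, they were at 329, 509, 533 and 254 CPM in wild type and at 426, 872, 235 and 493 CPM in db/db, where db/db 2 was the highest and db/db 3 the lowest of the 8 libraries. The log2 fold change was 0.32 ± 0.39 (95% interval −0.44 to 1.07, edgeR adjusted p = 0.610). The single internal fragment of Lys-TTT, cggtagagcatcagact, had 34 counts in wild type and 41 in db/db and was not tested. Of the 30 internal fragments of Lys-CTT, 18 held the anticodon at bases 34 to 36 of the tRNA. They began at bases 13 to 21 and ended at bases 40 to 45, and the most abundant, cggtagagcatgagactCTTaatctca, runs from base 17 to base 43. It was at 56.9, 73.1, 85.7 and 16.2 CPM in wild type and at 38.6, 124.5, 21.6 and 50.6 CPM in db/db, which overlap widely (log2 fold change 0.00 ± 0.43).

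Fragments across the anticodon had 2174 counts in all and made up 0.268% to 1.86% of the Lys-CTT counts of a library. Of the 14 fragments of Lys-TTT that are no 3′ ends, 0 held the anticodon, and the furthest of them ended at base 33, the last base before it. Rarer fragments of Lys-TTT, under the limit of the table, are not analysed here. Of the 24 isoacceptors with a 5′ class, those with fragments across the anticodon were Lys-CTT with 18, Glu-CTC with 44, Gly-TCC with 6, iMet-CAT with 4 and Glu-TTC with 3, and in the other 19, Lys-TTT among them, none was found among the fragments that could be placed.

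**Figure D5:**
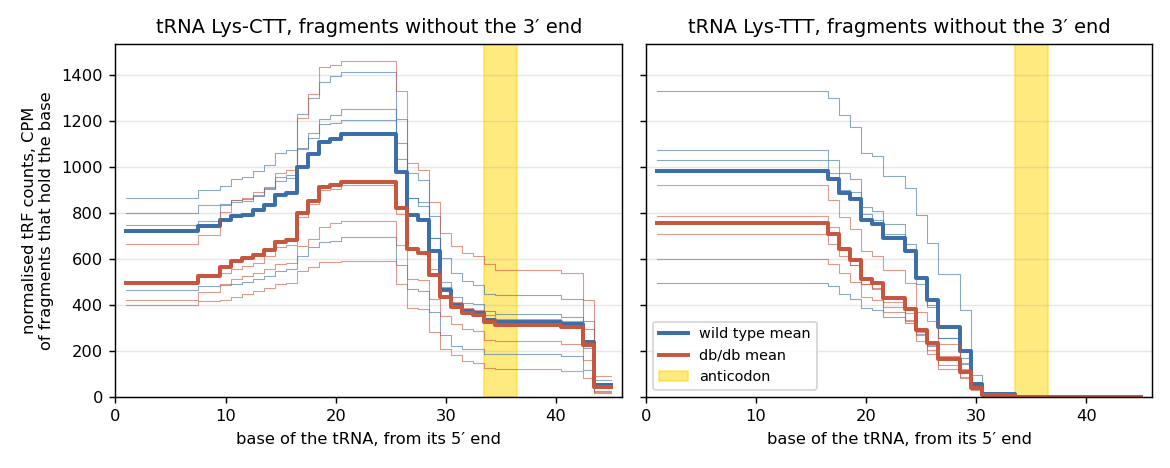
CPM (normalised tRF counts) of the 5′ and internal fragments that hold each base of tRNA Lys-CTT (left) and tRNA Lys-TTT (right), counted from the 5′ end, with thin lines for libraries and thick lines for the mean of 4; the shaded band is the anticodon at bases 34 to 36. The Lys-CTT lines run through the anticodon to base 45, and the Lys-TTT lines end at base 33, before it.

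The fragments of Lys-TTT were set beside those of the tRNAs that have the same kind of modified wobble uridine, Glu-TTC and Gln-TTG. There were 49 sequences of Glu-TTC and 0 of Gln-TTG among those analysed here. The Glu-TTC fragments summed to 4729 ± 1278 CPM in wild type and 3632 ± 679 in db/db (log2 fold change −0.38 ± 0.24, edgeR adjusted p = 0.396), beside −0.35 for Lys-TTT. None of their classes was called, with log2 fold changes of −0.41 for the complete 3′ ends, 0.11 for the 5′ and −0.30 for the internal fragments. A CCA-short fragment of Glu-TTC was not among the sequences analysed here.

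Over the 8 libraries the complete 3′ ends of Lys-CTT had a level most like those of Ser-CGA (Pearson r of log2 CPM 0.967), Trp-CCA (0.943) and Arg-TCT (0.929), and those of Lys-TTT most like Leu-CAG (0.772), Leu-CAA (0.764) and Ser-AGA (0.724). The median over the 44 other isoacceptors was 0.456 and 0.479. The CCA-short fragments of Lys-CTT were most like those of Gln-CTG (0.991), Ala-CGC (0.990) and Met-CAT (0.987), and those of Lys-TTT most like Arg-TCT (0.984), Cys-GCA (0.974) and Ala-CGC (0.973). Here the median over the 23 other isoacceptors was 0.954 and 0.957. The points of each pair share their 8 libraries and the split by genotype, and the values are a description with no test.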

How the data were processed

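β-cell RNA was sequenced from 4 wild type and 4 db/db libraries, made by the authors with the QIAseq miRNA kit (molecules tagged with unique identifiers) and read single-end on a NovaSeq. The authors collapsed reads by identifier and matched them without mismatches, with bowtie 1, to mature tRNAs of GtRNAdb (build GRCm38.p6 per the labels). The deposited counts of unique molecules per sequence were the basis of every test. The authors' deposited RPM, a score rounded to whole numbers, and their deposited log2 values, normalised by a method not given in the sources used here, served only for alternative library sizes. A deposited direction of change was not used.

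Members and lists were chosen with earlier results of these data known. Classes came from the sequences: complete 3′ (ends in CCA), CCA-short (1 to 3 bases short, sharing 12 bases or more with a CCA-ended fragment of the isoacceptor), 5′ (the most abundant 8-base start shared by at least 5 sequences) and internal. Positions were read from overlaps, since no genome sequence was used. Gene positions are those of RefSeq (GRCm38.p6) beside GENCODE annotation of that build.

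Counts were tested over the whole table with edgeR 4.0.16 in R 4.3.3 (TMM, filterByExpr with a minimum count of 10 and total of 15, genotype alone in the model, quasi-likelihood test, Benjamini-Hochberg adjustment). CPM are relative to TMM-scaled tRF totals. For shares, two-sided exact permutation tests ran over the 70 assignments of the libraries (smallest p 0.0286) or sign flips over 8 libraries. The most abundant 2 sequences of each anticodon and class, and for each anticodon the called sequences with the 3 largest changes in each direction, were named, and further members are described after their values were seen. On simulated counts 84% of 4-fold and 97% of 8-fold changes were recovered in this comparison (200 changed of 1832 simulated sequences, 1710 of which passed the filter). Alternatives were RLE or no factors, library totals from RPM or log2 values, DESeq2 1.42.0, the likelihood-ratio test, other filters, thresholds, class rules, merging or thinning, and leaving out each library. Replicate numbers follow the order of the labels.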

Additional observations from a re-analysis of the deposited data

Results flagged for a closer look

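Among 70 groups of 4 libraries examined, 5 had a library further from the others than 95% of samples of this size would show. Chance gives about 1 in 20. No cause was tested for any of them. In db/db 3 the complete 3′ ends of tRNA Lys-CTT were at 50354 CPM, while the other db/db libraries lay between 28370 and 29970, and their 16-nt form cccacgttgggcgCCA was at 19050 CPM beside 9891 to 10393. The same library, which had the most tRF counts, had the highest level of CCA-short fragments of tRNA Lys-CTT among the db/db libraries, 248 CPM beside 173 to 178, which is still below the lowest wild type library. In wild type 2 the Lys-TTT fragment ccagggttcaagtccctgttcgggcgC was at 198 CPM beside 87.3 to 101 in the other wild type libraries, and in db/db 4 the same fragment was at 17.8 CPM beside 24.5 to 25.3.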

How the results depend on the processing

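The decrease of the CCA-short fragments kept its direction and stayed past the threshold under each of the 16 alternatives run for them, with log2 fold changes of −3.73 to −2.86 for Lys-CTT and −4.04 to −2.74 for Lys-TTT (edgeR or DESeq2 adjusted p up to 0.00477 and 0.00437). These are class sums, which include the members that met the limit of the table only with the wild type libraries. The number of lysine sequences called, 9, ran from 10 to 15 when a library was left out, all of them lower: 15 without wild type 3, where 4 complete ends and both untested CCA-short fragments were added, and 14 without wild type 4, where 5 of the 5′ class were added. Thinning each library to the smallest total left 59 to test and 7 called, all CCA-short, and merging sequences with a common end left 30 to test and 3 called. With the CCA-short fragments counted among the complete 3′ ends, 0 lysine classes were called in place of 2, and counted as internal they gave the internal class of Lys-CTT a log2 fold change of −1.52 (edgeR adjusted p = 0.00107). Library totals from the deposited RPM, and sizes from the deposited log2 values, shifted the median of all sequences to −0.36 and −0.51, of all classes to −0.53 and −0.67, and of all isoacceptor totals to −0.44 and −0.54. The uncalled values that turned sign with them were the Lys-CTT complete 3′ ends (−0.086 and −0.11), the Lys-CTT internal fragments (−0.38 and −0.73), the Lys-CTT total (−0.18 and −0.22), gctcagtcggtagagca (−0.24 and −0.81) and ccctgttcgggcgCCA (−0.025 and −0.032), and relative to the shifted medians the values for the complete ends were above the median. Leaving out a library gave −0.053 to 0.56 for the Lys-CTT internal fragments, −0.38 to 0.18 for the Lys-TTT complete 3′ ends and −0.33 to 0.013 for the Lys-TTT 5′ fragments. It gave −0.56 to 0.36 for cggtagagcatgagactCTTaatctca, which was 0.13 without a normalisation factor, 0.0058 with the likelihood-ratio test, 0.057 without a filter and 0.066 with 10 counts required in 4 libraries, and −0.45 to 1.94 for gctcagtcggtagagca. The difference between genotypes in the ratio of the CCA-short shares of Lys-TTT and Lys-CTT was −0.33 at the 17-nt end alone and 0.92 at ends whose complete form is 19 to 30 nt long, both alternatives chosen after seeing the data, against 0.37 over all ends, and 0.24 to 0.51 with a library left out, 0.51 without wild type 2. Where a cause is not shown by the alternative itself, the cause was not tested.

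No paired analysis was possible because libraries of the genotypes compared share no replicate number in the labels. With 4 libraries per genotype the exact permutation tests between genotypes cannot fall below 0.0286, and fragments with few counts, such as gtccctgttcgggcgCC in db/db β-cells, are known with less precision.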
